A study of Mus musculus with 13 samples.

Results

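The Dlk1-Meg3 domain is a cluster of imprinted genes on distal mouse chromosome 12, described here by its 6 named genes: Dlk1, Meg3, Rtl1, Rian, Mirg and Dio3. They were taken by symbol. All 6 were found by their Ensembl identifiers among the 26797 genes of the replicate files and the 49671 genes of the count table, and all 6 passed the filter on low values that left 17297 genes for testing.

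Messenger RNA was sequenced from mouse embryonic stem (ES) cells grown without feeder cells on gelatin in serum and leukemia inhibitory factor. There were 3 untreated WT libraries of the AinV15 line, which carries a reverse tetracycline transactivator, and 3 untreated libraries of Dnmt1-/- cells, which belong to the D1-null strain (C allele) and are homozygous for a null allele of the maintenance methyltransferase Dnmt1. The labels name different lines, so the genotype and the line cannot be told apart. A further table held 4 single libraries: WT, Dnmt1-/-, and AinV15-derived cells with a doxycycline-inducible dCas9-OGA or dCas9-OGA-D242A fusion and 4 sgRNAs against the U3 promoter of IAP retrotransposons. The D242A fusion is an inactive form of O-GlcNAcase (OGA), the enzyme that removes O-GlcNAc from proteins. Expression of the fusions was induced with doxycycline before harvest, so in ratios to the untreated WT library the drug and the fusion cannot be told apart. Which culture gave the WT and Dnmt1-/- libraries of that table is not stated, and they were not counted among the replicates.

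In imprinted domains, the copies inherited from the mother and the father are used differently. In this domain, Dlk1, Rtl1 and Dio3 are protein-coding genes expressed mainly from the paternal chromosome, whereas Meg3, Rian and Mirg are non-coding RNAs of the maternal chromosome and host many small RNAs. An intergenic control region between Dlk1 and Meg3 carries DNA methylation on the paternal copy and restrains the non-coding genes there, and a further methylated region lies over the Meg3 promoter. The RNA values below do not separate the parental copies.

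On chromosome 12 of GRCm38 the genes spanned 828 kb. Dlk1 (ENSMUSG00000040856) lies at chr12:109452823-109463336 on the plus strand. Meg3 (ENSMUSG00000021268) follows at chr12:109541001-109571726, plus strand, and is annotated as a lincRNA. Rtl1 (ENSMUSG00000085925) is read from the minus strand at chr12:109589193-109600330. Rian (ENSMUSG00000097451) at chr12:109603940-109661716 and Mirg (ENSMUSG00000097391) at chr12:109729764-109749460 are again on the plus strand. Dio3 (ENSMUSG00000075707) at chr12:110279068-110281097, plus strand, starts 738 kb from the start of Meg3. Rtl1 has an antisense transcript, and since the sources differ on whether the library kit kept the strand, reads of the pair cannot be told apart.

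Sequences around the starts of Meg3, Rian and Dio3 are shown because these genes differ in CpG content where DNA methylation could act. They come from RefSeq on GRCm38.p6 and are printed on the plus strand with every CpG in capitals. The Meg3 and Rian windows run from 250 bases before to 50 bases after the RefSeq start, at chr12:109540746-109541045 and chr12:109603695-109603994. RefSeq gives a further Meg3 start, whose window at chr12:109545148-109545447 held 1 CpG and neither motif described below; the upstream window is shown because it covers the start of the annotated gene. For Dio3 only the 88 bases before the annotated gene are shown, chr12:110278980-110279067.
Meg3: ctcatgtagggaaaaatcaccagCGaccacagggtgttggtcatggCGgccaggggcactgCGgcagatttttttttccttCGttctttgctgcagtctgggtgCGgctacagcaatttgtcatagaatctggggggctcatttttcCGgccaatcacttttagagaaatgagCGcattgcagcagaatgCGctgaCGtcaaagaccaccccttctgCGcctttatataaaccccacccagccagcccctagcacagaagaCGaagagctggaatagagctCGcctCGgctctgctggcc
Rian: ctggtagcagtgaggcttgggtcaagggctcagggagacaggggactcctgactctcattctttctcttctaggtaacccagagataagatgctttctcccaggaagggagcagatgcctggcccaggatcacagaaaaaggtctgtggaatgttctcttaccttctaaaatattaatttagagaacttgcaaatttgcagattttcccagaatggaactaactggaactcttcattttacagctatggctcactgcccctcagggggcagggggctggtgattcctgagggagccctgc
Dio3: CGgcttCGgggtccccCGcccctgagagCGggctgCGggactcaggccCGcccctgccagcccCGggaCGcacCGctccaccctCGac

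The Meg3 window held 13 CpG, the Rian window 0, and the whole Dio3 window of the same length 25, of which the 88 bases shown held 10. Over all 32851 RefSeq promoter windows the median was 7 CpG, 37.9% held at least as many as Meg3 and 18.4% as many as Dio3. The Meg3 window also held GCGGCA from position 61, the reverse strand of TGCCGC, which is the methylation-dependent recognition sequence of ZFP57. TGCCGC occurred on either strand in 11.6% of all windows. The cyclic AMP response element TGACGTCA began at position 194 of the Meg3 window, and 1.79% of all windows held it on either strand. Both motifs contain a CpG counted above. These matches describe letters and not bound sites.

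The replicate libraries held between 26846275 and 37112247 reads on genes, and the single libraries between 18693531 and 25097983 counts. Replicate values are a normalised signal, the gene count divided by a scaled library size, with library sums between 959084 and 1036637 units. Dnmt1 was checked first: its signal was 307.9 to 351.9 in WT and 73.6 to 77.6 in Dnmt1-/- libraries, which is the direction of the labels. Of 6 pluripotency genes tested 1 was higher, 3 were lower and Nanog and Zfp42 were not called, and the summed signal was 3762 to 3904 in WT and 3747 to 3893 in Dnmt1-/-. All 6 fibroblast markers were lower in Dnmt1-/- cells, with a summed signal of 1040 to 1502 in WT against 256 to 284, and none was at 0. Of 6 primitive endoderm markers 5 were higher, with sums of 141 to 143 against 199 to 207. Of 5 trophoblast markers tested 4 were higher and 1 lower, with sums of 19.5 to 23.1 against 27.7 to 28.7. Of 3 mesoderm markers tested 2 were higher, with sums of 1.51 to 1.69 against 9.82 to 11.4. Of 6 markers of the 2-cell-like state 5 were lower, with sums of 401 to 427 against 163 to 189. The only neural marker measured, Pax6, fell by 0.58 on the log2 scale. The part of these cell states in the results for the domain was not tested. In these bulk samples, fewer cells that express a gene and less RNA per cell cannot be told apart.

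The comparison of Dnmt1-/- with WT cells asks how RNA of the domain differs where maintenance methylation is lost. Dlk1 was higher in Dnmt1-/- cells by 0.91 on the log2 scale and Dio3 was lower by a log2 fold change of −0.83. Rtl1 and Mirg rose less, Rian fell, and Meg3 did not pass the test. Thus 3 genes were higher, 2 were lower and 1 was not called at an adjusted p of 0.05 (limma, Benjamini-Hochberg over all genes tested). Among all genes tested 71.2% were called, 35.8% higher and 35.4% lower, so the count for the domain stands near that of the background. The median log2 fold change was 0.01 for the 6 genes and 0.01 for all genes tested.

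**Figure D1:**
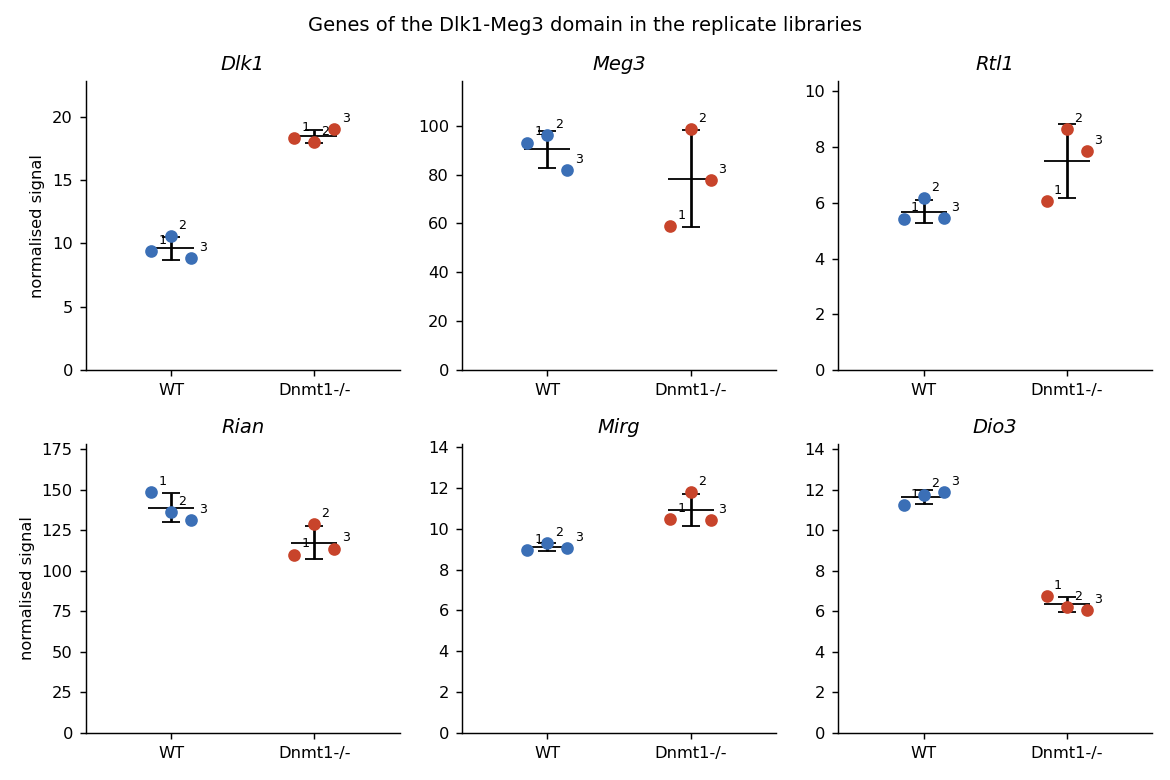
Normalised signal (vertical axes, each starting at 0) of the 6 genes in the 3 WT and 3 Dnmt1-/- libraries, with replicate numbers beside the points; horizontal bars and whiskers are the mean and SD. Dlk1 and Mirg lie higher and Rian and Dio3 lower in every Dnmt1-/- library, while the groups overlap for Meg3 and Rtl1.

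Among the protein-coding genes, Dlk1 encodes a transmembrane protein related to Notch ligands that restrains adipocyte differentiation. Its signal was 9.37, 10.6 and 8.87 in WT replicates 1 to 3, and 18.28, 18.01 and 19.01 in Dnmt1-/- replicates 1 to 3. Every Dnmt1-/- library lay above every WT library. The means were 9.60 ± 0.873 (SD, n = 3) and 18.4 ± 0.517 (SD, n = 3), a 1.92-fold difference. The log2 fold change was 0.91 (SE 0.08, adjusted p = 4.6e-10 by limma), and 15.9% of the genes tested had a larger change in either direction.

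Dio3 encodes the type 3 iodothyronine deiodinase, which inactivates thyroid hormone, and is the member farthest from the control region. Its signal was 11.2, 11.8 and 11.9 in WT and 6.76, 6.21 and 6.04 in Dnmt1-/- libraries, without overlap. The means were 11.6 ± 0.348 and 6.34 ± 0.372 (SD, n = 3 each), 1.83-fold higher in WT. The log2 fold change was −0.83 (SE 0.09, adjusted p = 1.3e-08 by limma). Thus Dlk1 and Dio3, at opposite ends of the domain and both expressed mainly from the paternal copy, moved in opposite directions.

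Rtl1 encodes a protein derived from a retrotransposon and needed in the placenta. Its signal was 5.44, 6.18 and 5.46 in WT and 6.06, 8.65 and 7.85 in Dnmt1-/- libraries, so Dnmt1-/- replicate 1 fell within the WT range. The log2 fold change was 0.36 (SE 0.11, adjusted p = 0.0068 by limma). Without Dnmt1-/- replicate 2 it was 0.26, with an adjusted p of 0.071 by limma.

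Meg3 is the first non-coding gene after the control region. Its signal was 93.0, 96.0 and 81.8 in WT and 59.0, 98.6 and 77.6 in Dnmt1-/- libraries. Dnmt1-/- replicate 2 was the highest of the 6 libraries and replicate 1 the lowest, so the groups overlapped. The means were 90.3 ± 7.50 in WT and 78.4 ± 19.8 in Dnmt1-/- (SD, n = 3 each). The log2 fold change was −0.23 (SE 0.10, adjusted p = 0.051 by limma, unadjusted p = 0.036). This value depended on single libraries. Without Dnmt1-/- replicate 1 it was −0.042 (adjusted p = 0.64 by limma), and without Dnmt1-/- replicate 2 it was −0.41 (adjusted p = 0.00054 by limma). Without WT replicate 3 it was −0.30 (adjusted p = 0.00073 by limma). With the replicate number as a block in the model it stayed at −0.23, with an adjusted p of 0.017 by limma.

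The coefficient of variation of Meg3 over the 3 Dnmt1-/- libraries was 25.3%, against 8.31% in WT. Of 9587 genes with a mean signal of at least 10, 5 varied more among the Dnmt1-/- libraries, and the median gene varied by 3.87%. This measure and the following pair of genes were chosen after the values were seen. Malat1, an abundant nuclear non-coding RNA, had signals of 278, 285 and 282 in WT and 190, 292 and 253 in Dnmt1-/- libraries. Neat1, the scaffold RNA of nuclear paraspeckles, had 25.8, 27.8 and 26.3 in WT and 14.2, 26.9 and 19.8 in Dnmt1-/- libraries. Malat1 and Neat1 were called lower in Dnmt1-/- cells by limma. Their log2 fold changes were −0.22 (adjusted p = 0.029 by limma) and −0.43 (adjusted p = 0.0036 by limma). For Meg3, Rtl1, Rian, Malat1 and Neat1 alike, Dnmt1-/- replicate 1 was lowest and replicate 2 highest within its group. What moved these RNAs together between libraries was not tested.

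**Figure D2:**
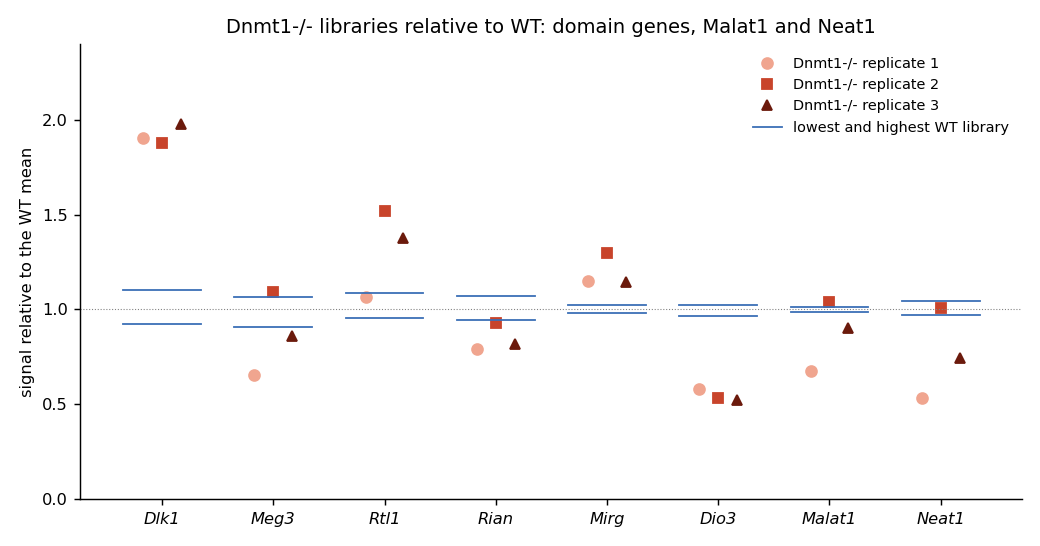
Signal of each Dnmt1-/- library divided by the WT mean (vertical axis, from 0) for the 6 genes, Malat1 and Neat1; symbols are Dnmt1-/- replicates 1 to 3 and blue lines mark the lowest and highest WT library. The replicates are spread for Meg3, Malat1 and Neat1 and close together for Dlk1 and Dio3.

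Rian hosts snoRNAs and microRNAs in its introns and had the highest signal of the domain. Its signal was 148.6, 136.3 and 131.2 in WT and 109.9, 128.9 and 113.6 in Dnmt1-/- libraries. All Dnmt1-/- libraries were below all WT libraries, with 128.9 and 131.2 the nearest pair. The log2 fold change was −0.24 (SE 0.06, adjusted p = 0.00082 by limma), from means of 138.7 ± 8.93 and 117.4 ± 10.1 (SD, n = 3 each).

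Mirg, the most distal of the non-coding genes, hosts a large microRNA cluster. Its signal was 8.94, 9.30 and 9.05 in WT and 10.5, 11.8 and 10.4 in Dnmt1-/- libraries. Mirg was thus higher in every Dnmt1-/- library, opposite to Rian. The log2 fold change was 0.25 (SE 0.09, adjusted p = 0.013 by limma). Without Dnmt1-/- replicate 2 it was 0.19, with an adjusted p of 0.085 by limma, and of the 3 genes called higher only Dlk1 then remained called. In all, 4 of the 6 genes had groups that did not overlap, 2 higher and 2 lower, beside 73.3% of all genes tested, 37.1% higher and 36.2% lower.

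Signal per kilobase of annotated exon placed the genes on a common scale, although exon lengths taken over all isoforms are long for Meg3 (18089 bases) and Rian (18234 bases). In WT the order of mean levels was Rian at 7.61 ± 0.490, Dio3 at 5.73 ± 0.172, Meg3 at 4.99 ± 0.415, Dlk1 at 1.70 ± 0.154, Mirg at 1.25 ± 0.025 and Rtl1 at 0.895 ± 0.067 (signal per kb, SD, n = 3). The libraries of neighbours in that order did not overlap. In Dnmt1-/- cells the order became Rian at 6.44 ± 0.552, Meg3 at 4.33 ± 1.095, Dlk1 at 3.26 ± 0.091, Dio3 at 3.12 ± 0.183, Mirg at 1.495 ± 0.107 and Rtl1 at 1.18 ± 0.208. There Meg3 and Dlk1 overlapped, and so did Dlk1 and Dio3. Dlk1 thus moved from a level well under that of Dio3 to a level whose library range overlapped that of Dio3.

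Ratios of per-length signals within each library describe the balance of the genes. The ratio of Dlk1 to Dio3 was 0.299, 0.322 and 0.268 in WT and 0.971, 1.04 and 1.13 in Dnmt1-/- libraries. Dlk1 relative to Meg3 was 0.322, 0.352 and 0.347 in WT and 0.992, 0.585 and 0.783 in Dnmt1-/- libraries. Both ratios were higher in every Dnmt1-/- library. Rian relative to Meg3 was 1.58, 1.41 and 1.59 in WT and 1.85, 1.30 and 1.45 in Dnmt1-/- libraries, and the groups overlapped (p = 1.0, two-sided exact permutation test). Rian relative to Mirg fell from 6.65, 5.86 and 5.80 to 4.19, 4.37 and 4.36, so the non-coding genes did not change in proportion. Mirg and Rtl1 relative to Meg3 were higher in every Dnmt1-/- library, with means of 0.357 against 0.251 and of 0.277 against 0.180. Rtl1 relative to Dlk1 was lower, at 0.363 against 0.528. Over these 7 ratios the exact permutation test gave p = 0.1 for the 6 without overlap, the smallest value that 3 against 3 libraries can give, and 0.117 after Benjamini-Hochberg adjustment.

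**Figure D3:**
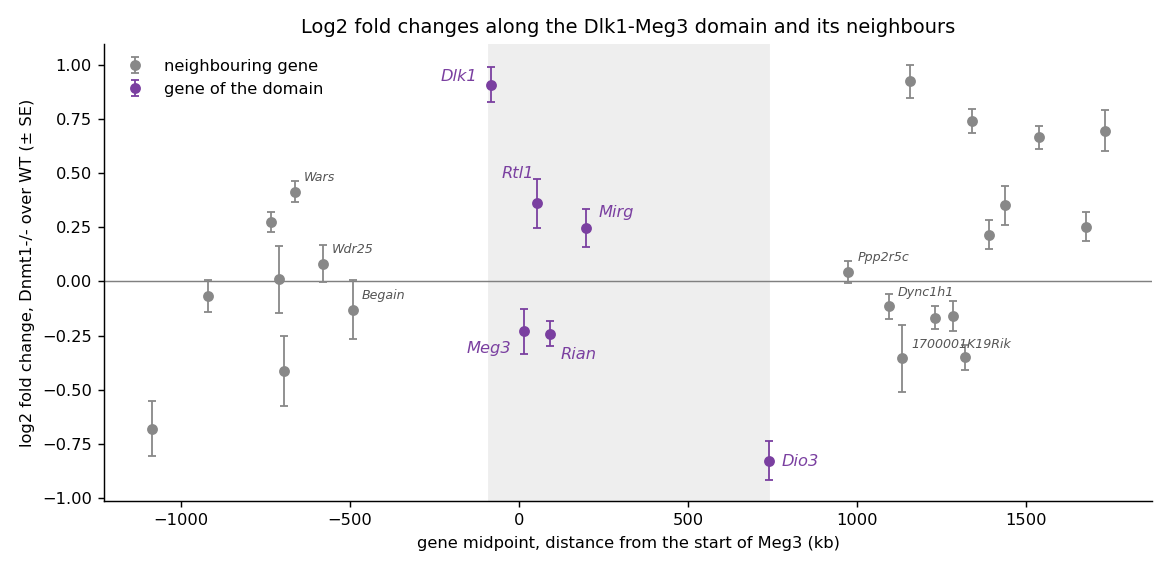
Log2 fold change of Dnmt1-/- over WT with its SE (vertical axis) against the distance of the gene midpoint from the start of Meg3 in kb (horizontal axis) for the 6 genes (purple) and the 21 genes tested within 1 Mb of the domain (grey); shading marks the domain. Dlk1 at 0.91 and Dio3 at −0.83 stand at its ends, with the other members between −0.24 and 0.36.

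Other annotated genes between Dlk1 and Dio3 comprised 67 microRNAs, 23 snoRNAs and 22 further genes, and none entered the test. Of these, 14 microRNAs, 2 snoRNAs and 2 further genes were listed in the replicate files, where they gathered 28, 3 and 31 reads over the 6 libraries. All 67 microRNAs, all 23 snoRNAs and 8 further genes were listed in the table of single libraries, with 34, 26 and 97 counts, of which the lincRNA Gm26945 had 54. RNA libraries of this kind capture few small RNAs, so these counts do not measure the mature products of Rian and Mirg. Of the neighbours on the side of Dlk1, Begain (log2 fold change −0.13, adjusted p = 0.40 by limma) and Wdr25 (0.08, adjusted p = 0.40 by limma) were not called. Wars, a tryptophanyl-tRNA synthetase, rose by 0.42 (adjusted p = 3.9e-08 by limma). On the side of Dio3, Ppp2r5c (0.04, adjusted p = 0.46) and Dync1h1 (−0.12, adjusted p = 0.08) were not called by limma, and 1700001K19Rik fell by 0.36 (adjusted p = 0.042 by limma) at a mean signal under 1. Within 1 Mb, 9 of 21 genes tested were higher and 6 lower, with a median log2 fold change of 0.04. On the whole of chromosome 12, 217 of 589 genes were higher and 217 lower, with a median of 0.01. Of the wider list of 25 flanking genes, 24 were tested, with 10 higher and 7 lower.

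Genes with profiles most like those of the members were ranked by Euclidean distance over the 6 libraries, on log2 signals centred on each gene's mean. The nearest to Dlk1 were Mknk2, Rims3, Nprl3, Erbb2 and Clint1, at distances of 0.066 to 0.096. Those nearest to Dio3 were Mycn, Camk2n1, Gli1, Bcl2l15 and Stmn1, at 0.073 to 0.110. For Meg3 they were Gm30414, Malat1, Naalad2, 4930579C12Rik and Zswim2, at 0.149 to 0.225, and Rian ranked 144 of 17296. For Rian they were Mapk1ip1, Kdm4dl, Slc50a1, 1810041L15Rik and Serpinb1a, at 0.076 to 0.108, and Meg3 ranked 3508. For Rtl1 they included Acrbp, D830044I16Rik, Gm10252 and Mroh7, at 0.132 to 0.171, and Mirg ranked 274. For Mirg they were Elf4, Rfng, Rint1, Borcs6 and 2310061I04Rik, at 0.058 to 0.076, and Rtl1 ranked 3950. No member was thus among the 5 genes nearest to another member.

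Of 20 regulators of DNA methylation and of chromatin at such regions, 12 were higher, 6 lower and 2 not called in Dnmt1-/- cells, with a median log2 fold change of 0.25. Among all genes tested, 35.8% were higher and 35.4% lower. Dppa3, which protects imprinted methylation in the zygote, rose from 1.51 ± 0.204 to 16.7 ± 2.25 (SD, n = 3 each), a log2 fold change of 3.10 (adjusted p = 2.9e-17 by limma). Dnmt3l, the cofactor of de novo methyltransferases, rose by 1.61, Suz12, a subunit of Polycomb repressive complex 2, by 1.43, and the de novo methyltransferase Dnmt3b by 1.11. Zfp57 and Trim28, which bind methylated control regions together, rose by 0.40 and 0.26. Zfp445, a further zinc finger protein of these regions, fell by 0.32 on the log2 scale. Tet1 and Tet2, which oxidise methylcytosine, fell by 0.32 and 0.35. Aff3, known to bind the control region of this domain, fell by 0.93 on the log2 scale, from 13.5 ± 1.23 to 6.87 ± 0.790 (SD, n = 3 each, adjusted p = 6.3e-09 by limma). Ctcf (−0.11, adjusted p = 0.065) and Daxx (0.09, adjusted p = 0.095) were not called by limma.

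**Figure D4:**
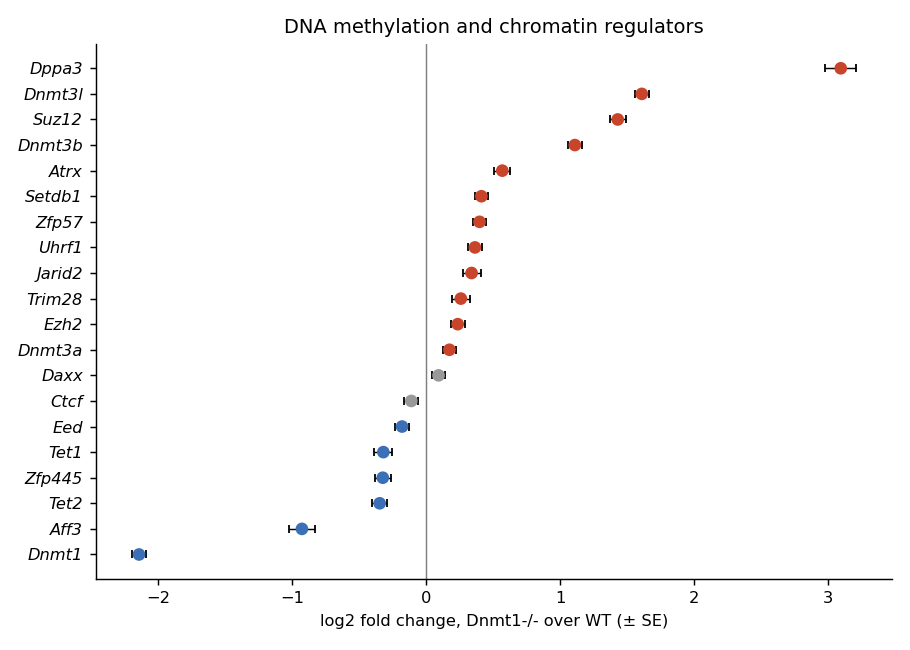
Log2 fold change of Dnmt1-/- over WT with its SE (horizontal axis) for the 20 regulators, ordered by value; red and blue points passed an adjusted p of 0.05 as higher and lower, and grey points did not. Values run from −2.14 for Dnmt1 to 3.10 for Dppa3, and 12 genes are higher.

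In the pathways of the coding genes, changes went both ways, as they did among all genes tested, of which 35.8% were higher and 35.4% lower. Among 16 genes of Notch signalling tested, with which DLK1 is thought to interfere, 6 were higher and 7 lower, with a median log2 fold change of −0.03. The ligands Dll1 and Jag1 fell by 2.13 and 0.92 on the log2 scale, Jag2 rose by 0.80, and the target Hes1 fell by 0.41. Among 8 genes of thyroid hormone transport and response tested, 5 were higher and 2 lower, with a median of 0.32. The transporter Slc16a10 rose by 1.13, the hormone-binding protein Crym rose by 0.67 and the receptor Thra fell by 0.49. Dio1 and Dio2, the activating deiodinases, were under the filter. Of 6 other genes derived from the same family of retrotransposons as Rtl1, 2 were higher and 4 lower. Peg10 rose by 2.54 and Ldoc1 by 1.56 on the log2 scale, and the median was −0.78. Cxx1a and Cxx1b fell by 1.07 and 1.03, but as near-identical copies they may share reads.

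The other paternally methylated control regions give a comparison. H19, the maternally expressed non-coding RNA of its domain, rose from 88.5 ± 7.93 to 226 ± 11.2 (SD, n = 3 each), a log2 fold change of 1.35 (adjusted p = 4.9e-16 by limma). Its paternally expressed neighbour Igf2, a growth factor, fell from 158 ± 17.7 to 29.2 ± 1.46 (SD, n = 3 each), a log2 fold change of −2.41 (adjusted p = 7.7e-20 by limma). In the Dlk1-Meg3 domain, the paternally expressed Dlk1 and Rtl1 were higher and Dio3 lower. Of the maternally expressed genes Rian was lower, Mirg higher and Meg3 not called. With all replicate libraries, neither parental set thus moved one way. For the maternal set this rests on Mirg, whose call was lost without Dnmt1-/- replicate 2, as was that of Rtl1. Meg3 and Rian were then called lower by limma, at log2 fold changes of −0.41 and −0.31. Reads of Rtl1 may include its antisense transcript. In the single libraries the maternally expressed Meg3, Rian and Mirg were all higher in Dnmt1-/- than in WT cells, with the values given further on. The paternally expressed Rtl1 was also higher there, at a log2 ratio of 1.26, and Dio3 was lower, at −1.40. Meg3, Rian and Mirg were also above that WT library with dCas9-OGA and with dCas9-OGA-D242A. In the same libraries H19 was lower in Dnmt1-/- than in WT cells, at 135.6 against 181.3 cpm, and Igf2 stood at 14.7 against 200.0 cpm. With dCas9-OGA and dCas9-OGA-D242A, H19 stood at 6.89 and 189.6 cpm and Igf2 at 9.67 and 41.4 cpm. Zdbf2 rose by 0.44, Gpr1 (−0.26, adjusted p = 0.11 by limma) was not called and Rasgrf1 was under the filter, so that of 4 genes tested 2 were higher and 1 lower.

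The single libraries allow a further comparison of Dnmt1-/- with WT cells and comparisons of the cells with dCas9 fusions. Each condition had 1 library, so no difference has a replicate check and no test was made. Counts were scaled to counts per 1000000 counts (cpm) with TMM factors between 0.988 and 1.02. Log2 ratios of members are given without a pseudocount, with 95% intervals (exact binomial) that cover counting error only. The tables were mapped and normalised separately, so levels are not compared between them. The summed level of the 6 fibroblast markers was 60.6 cpm in WT, 33.8 in Dnmt1-/-, 56.8 with the active fusion and 73.8 with the inactive fusion, and that of the 6 primitive endoderm markers was 51.1, 17.6, 38.1 and 20.2 cpm. The 6 markers of the 2-cell-like state summed to 24.4 cpm in WT and to 1.11, 0.363 and 1.33 cpm in the others, which sets the WT library apart in every ratio to it. Their part in the values below was not tested.

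Dlk1 had 304 counts in WT cells, 208 in Dnmt1-/- cells, 115 with the active fusion and 294 with the inactive fusion, or 12.3, 10.9, 4.63 and 11.8 cpm. Dlk1 was thus lowest with the active fusion. Meg3 had 425, 492, 774 and 1097 counts in the same order, or 17.2, 25.9, 31.2 and 44.1 cpm. Rian had 461, 826, 1244 and 1819 counts, or 18.6, 43.5, 50.1 and 73.2 cpm. Mirg had 107, 135, 142 and 193 counts, or 4.32, 7.10, 5.72 and 7.77 cpm. Meg3, Rian and Mirg were each lowest in WT and highest with the inactive fusion. For Mirg, the counting intervals of the inactive fusion and of Dnmt1-/- overlapped. Rtl1 had 30, 55, 25 and 59 counts, or 1.21, 2.89, 1.01 and 2.37 cpm. Dio3 had 93, 27, 25 and 15 counts, or 3.75, 1.42, 1.01 and 0.604 cpm, and was highest in WT.

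**Figure D5:**
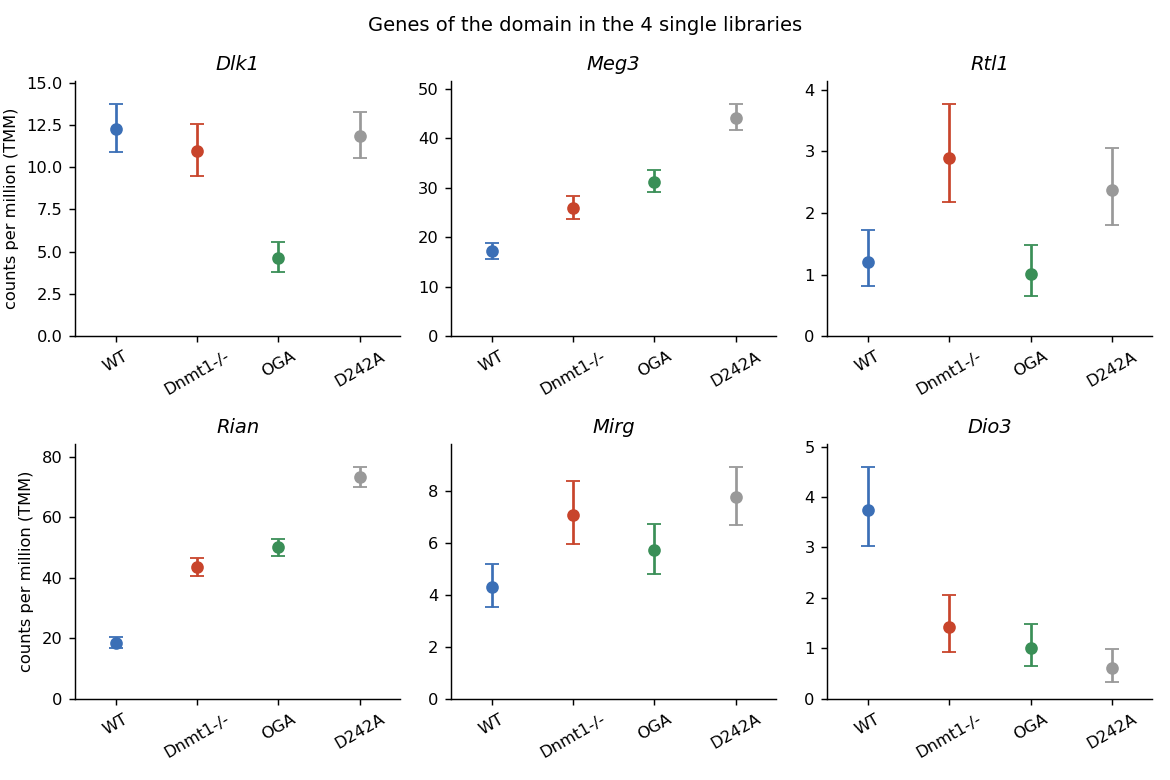
Level in cpm after TMM scaling (vertical axes, each from 0) of the 6 genes in the single libraries of WT, Dnmt1-/-, dCas9-OGA and dCas9-OGA-D242A; whiskers are 95% exact Poisson intervals for counting error only. Rian rises from 18.6 cpm in WT to 73.2 cpm with dCas9-OGA-D242A, and Dlk1 is lowest with dCas9-OGA at 4.63 cpm.

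Between dCas9-OGA and dCas9-OGA-D242A, Dlk1 was 2.55-fold lower with the active fusion, a log2 ratio of −1.35 (interval from −1.68 to −1.04). The fusions differ in the activity of the enzyme but were carried by separate recombinant cells, so enzyme activity and cell line cannot be told apart. The log2 ratio was −0.50 for Meg3 (interval from −0.64 to −0.37), −0.55 for Rian (from −0.65 to −0.44) and −0.44 for Mirg (from −0.76 to −0.12). Rtl1 was at −1.24 on 25 and 59 counts (from −1.97 to −0.54), and for Dio3, at 0.74 on 25 and 15 counts, the interval from −0.24 to 1.77 included 0. Among genes with at least 100 counts over the pair, 12.1% differed at least 2-fold on the log2(cpm + 0.5) scale, 7.22% lower and 4.88% higher. Of the 4 members with that many counts, 1 was at least 2-fold lower. The median log2 ratio of chromosome 12 was 0.09, against 0.03 for all genes compared. Malat1 stood at 110 cpm with the active and 225 cpm with the inactive fusion, and Neat1 at 22.3 and 13.4 cpm.

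Against WT, dCas9-OGA-D242A had log2 ratios of 1.98 for Rian (interval from 1.83 to 2.13), 1.36 for Meg3 (from 1.20 to 1.53) and 0.85 for Mirg (from 0.50 to 1.20). Dio3 stood at −2.64 (from −3.53 to −1.84), and for Dlk1 the log2 ratio of −0.05 had an interval from −0.29 to 0.18. For the active fusion the log2 ratio to WT was 1.43 for Rian, 0.86 for Meg3, −1.90 for Dio3 and −1.40 for Dlk1. At least 2-fold differences from WT were found for 20.8% of genes with dCas9-OGA-D242A (12.5% higher, 8.28% lower) and 23.8% with dCas9-OGA (14% higher, 9.78% lower). Among 5 members with enough counts, 2 were 2-fold higher and 1 lower with the inactive fusion, and 1 was higher and 2 lower with the active fusion. The median log2 ratio of chromosome 12 was 0.09 with the inactive and 0.14 with the active fusion. These comparisons share the WT library, so a value particular to that library enters each of them. In WT, Malat1 stood at 77.6 cpm, the lowest of the 4 libraries. Meg3, Rian and Mirg were also lowest in WT.

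Between the single Dnmt1-/- and WT libraries, Rian was 2.34-fold higher, a log2 ratio of 1.22 (interval from 1.06 to 1.39). Meg3 was higher by 0.59 (from 0.40 to 0.78), Mirg by 0.72 (from 0.34 to 1.10) and Rtl1 by 1.26 (from 0.59 to 1.95). Dio3 was lower, at −1.40 (from −2.08 to −0.77), and for Dlk1 the interval from −0.43 to 0.09 around −0.16 included 0. Among all genes compared, 17.4% differed at least 2-fold (10.5% higher, 6.89% lower), and of 5 members 1 was higher and 1 lower. Dio3, Mirg and Rtl1 had the same sign here as in the replicate libraries, whereas Rian had the opposite sign. The estimates for Dlk1 and Meg3 also differed in sign. The interval of Dlk1 included 0 here, however, and Meg3 was not called in the replicate libraries.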

How the data were processed

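The authors deposited a normalized signal per gene, counts over a scaled library size, for each of the 6 replicate libraries. Their headers did not match the columns, so values were taken by position. For the single libraries the authors deposited raw counts per gene, with mm10 and featureCounts 1.5.0 named in their processing notes, beside HISAT2 2.1.0 (replicates) or TopHat2 2.0.11. All signal values (100%) were whole multiples of 1 read within 1e-06, and recovered reads entered edgeR 4.0.16 and DESeq2 1.42.0 as alternatives, which called 12252 and 11404 genes.

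Signal was tested as log2(signal + 0.5) with limma 3.58.1 (trend) in R 4.3.3 after edgeR's filterByExpr, with Benjamini-Hochberg adjustment at 0.05, so fold changes of low genes are understated. Depth limits the lowest member, Rtl1, to 152 to 263 reads per replicate library. Single libraries were scaled by TMM. Scripts were checked on simulated data. Tables and figures used SciPy 1.17.1, NumPy 2.4.6, pandas 2.3.3 and matplotlib 3.10.9 under Python 3.11.15. Locations follow GENCODE vM21 on GRCm38, which matched 26679 of 26797 identifiers. No label says that replicates were separate cultures, so p-values measure the spread between libraries, which may be technical. The members and lists were chosen with earlier results of these data known. Named were the members, genes of the fixed lists, the 3 nearest flanking genes on each side and the 5 nearest profiles; Malat1 and Neat1 were added after their values were seen. Fit across both tables was not made, since they were normalized separately. The 5 ChIP and input samples and Dio3os were not analysed here. Some genes that the naming rule would include are not reported here.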

Additional observations from a re-analysis of the deposited data

Results flagged for a closer look

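The fitted or measured change between Dnmt1-/- and WT cells differed in sign between the replicate and the single libraries for Dlk1 and Rian. Dlk1 was higher in all 3 Dnmt1-/- replicates (log2 fold change 0.91), but its log2 ratio in the single libraries, on the log2(cpm + 0.5) scale, was −0.16, with a counting interval from −0.43 to 0.09 that includes 0, so an opposite sign is not shown for Dlk1. Rian was lower in all 3 Dnmt1-/- replicates (log2 fold change −0.24), but its log2 ratio in the single libraries was 1.20 on that scale, with an interval from 1.06 to 1.39. Meg3 also differed in sign (−0.23 in the replicates, with overlapping groups, against 0.59 without a pseudocount, interval from 0.40 to 0.78). The difference between the sets of libraries was not tested, as the single set has 1 library per condition.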

How the results depend on the processing

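No member changed direction under any alternative run: edgeR, DESeq2, TMM scaling, pseudocounts of 0.1 and 1, no filter, the replicate block and each library left out. With libraries left out in turn, the log2 fold change ranged from 0.86 to 0.98 for Dlk1, from −0.87 to −0.80 for Dio3, from −0.31 to −0.19 for Rian, from −0.41 to −0.042 for Meg3, from 0.26 to 0.50 for Rtl1 and from 0.19 to 0.28 for Mirg. The number of members called higher ranged from 1 to 3, the lowest without Dnmt1-/- replicate 2, and the number called lower from 2 to 3. Calls over all genes ranged from 11616 to 12128 with a library left out, and were 13271 without the filter. All 72 single-library ratios recomputed with total counts or pseudocounts of 0.1 and 1 cpm kept their sign and, from their values at a pseudocount of 0.5 cpm, moved by less than the half-width of their counting interval. With a pseudocount of 1 cpm, Dio3 relative to WT stood at −1.57 with dCas9-OGA-D242A and −1.24 with dCas9-OGA, against −2.64 and −1.90 without one, closer to 0 than the intervals.

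The correlations of deviations between libraries of the same number were 0.074, −0.016 and 0.065 for numbers 1 to 3. WT replicates 1 and 3 correlated best with their own number and WT replicate 2 did not, so pairing was neither shown nor excluded. With the replicate block, 12556 genes were called against 12324 without it, and the log2 fold change of Meg3 stayed at −0.23 with an adjusted p of 0.017 by limma in place of 0.051.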
